A study of Homo sapiens with 6 samples.

Results

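JMJD8 and 9 genes beside it on chromosome 16, in band 16p13.3, were followed as a block in the human gastric cancer line NCI-N87. The 10 genes, out of 58735 in the deposited table, were JMJD8, STUB1, WDR24, FBXL16, RHBDL1, RHOT2, WDR90, METRN, CCDC78 and HAGHL, and all 10 had enough counts to be tested. JMJD8 was selected on its measured counts, which were lower with EGLN3 in these same libraries, so its difference between the groups is given as a description with no test. The 9 neighbours were chosen by their place beside it, with earlier results of these data known, and are not every gene of the stretch. The question was whether the lower level belonged to JMJD8 alone or was shared along the block.

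RNA was sequenced from 3 libraries of cells that had received the plasmid PLVX-IRES-Puro-EGLN3, and from 3 control libraries with the empty PLVX-IRES-Puro plasmid. Puromycin selection lasted 7 days in all 6. The time with the plasmid before it is labelled as 1 day, and as 5 days for EGLN3 replicate 3. EGLN3 (PHD3) belongs to the prolyl hydroxylases that mark hypoxia-inducible factors (HIF) for degradation. Expression came from a lentiviral plasmid in 1 cell line, at a level far above that of the native gene. Apart from the 5 days labelled for EGLN3 replicate 3, nothing in the labels shows that replicates were separate cultures. Where they were not, p-values measure a spread between libraries that could be purely technical.

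JMJD8 carries a Jumonji C domain, the fold of the oxygen-using 2-oxoglutarate dioxygenases, and resides in the lumen of the endoplasmic reticulum. It is known as a positive regulator of NF-kB signalling after tumour necrosis factor, and the published study of EGLN3 in gastric cancer names it. Gene-dense stretches such as this one hold short, GC-rich genes whose ends often touch or overlap. When strand is not used, reads from an overlap can then be counted for either gene or for neither, depending on the settings.

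The 10 genes spanned 86.2 kb, in the order WDR90, RHOT2, RHBDL1, STUB1, JMJD8, WDR24, FBXL16, METRN, CCDC78 and HAGHL. In hg38, JMJD8 (ENSG00000161999) occupies 681671 to 684528 of chromosome 16, on the minus strand. STUB1 (ENSG00000103266) runs on the plus strand from 680224 to 682870, so both genes end inside each other over 1200 bp. Of that stretch 983 bp is exonic in both genes in GENCODE release 29, which is 37.4% of the exonic length of JMJD8 and 42.4% of that of STUB1. It holds 67 coding bases of JMJD8 and 436 coding bases of STUB1. On its other side JMJD8 begins 93 bp from the end of WDR24, which lies on the same strand from 684622 to 690444. WDR90 (649311 to 667833), RHOT2 (668086 to 674174) and RHBDL1 (675666 to 678268) lie on the plus strand. FBXL16 (692498 to 705829) lies on the minus strand, METRN (715115 to 719655) on the plus strand, and CCDC78 (722582 to 726954) on the minus strand. HAGHL (726936 to 735525, plus strand) overlaps CCDC78 by 19 bp at their starts and shares 1744 exonic bp with CIAO3 on the other strand. WDR24 shares 1303 exonic bp with the antisense transcript Z92544.2, and WDR90 shares 1324 with AL022341.2, which had 0 counts in all 6 libraries.

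**Figure D1:**
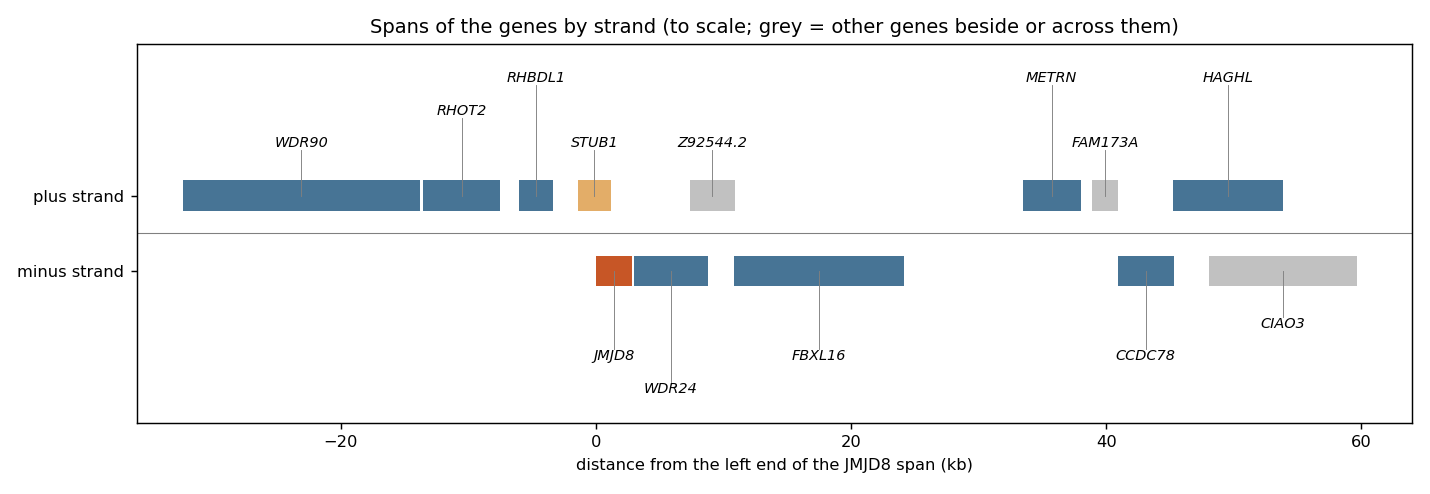
Spans of the 10 genes and 3 other genes by strand, with distance from the left end of the JMJD8 span in kb on the x axis, JMJD8 in red and STUB1 in yellow. JMJD8 and STUB1 overlap by 1200 bp, and JMJD8 starts 93 bp from the end of WDR24.

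Much of what counts toward JMJD8 lies outside its coding sequence. Its 2627 exonic bp make up 91.9% of its span, 11 of its 16 GENCODE transcripts are retained-intron forms, and 32.6% of the exonic length is coding. CCDC78 is built alike, with 94.8% of its span exonic and 13 retained-intron transcripts of 16. In FBXL16, by contrast, 29.9% of the span is exonic. GC content of the longest transcript lay between 63.4% (WDR24) and 66.7% (RHBDL1), with JMJD8 at 64.1%.

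Sequence before the start was at hand for 6 of the 10 genes (JMJD8, WDR90, RHOT2, RHBDL1, METRN and CCDC78; RefSeq, GRCh38.p14). The 250 bases before the RefSeq start are shown for JMJD8 and for WDR90, the neighbour whose values followed it most closely, as described below. Capitals mark matches on either strand to the HIF core (ACGTG or GCGTG), the CCAAT box (CCAAT) and the GC box (GGGCGG). The JMJD8 stretch is chr16:684335-684584 on the minus strand, which begins in the gap after WDR24, and the WDR90 stretch is chr16:649115-649364 on the plus strand. The RefSeq starts lie inside the spans of the deposited table, so 194 of the 250 bases for JMJD8 and 54 for WDR90 fall within the gene's own span.
JMJD8: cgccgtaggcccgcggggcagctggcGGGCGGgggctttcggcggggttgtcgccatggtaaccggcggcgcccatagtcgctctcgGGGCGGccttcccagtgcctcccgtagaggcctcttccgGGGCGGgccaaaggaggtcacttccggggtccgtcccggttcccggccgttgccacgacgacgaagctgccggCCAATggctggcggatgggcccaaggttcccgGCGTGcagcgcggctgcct
WDR90: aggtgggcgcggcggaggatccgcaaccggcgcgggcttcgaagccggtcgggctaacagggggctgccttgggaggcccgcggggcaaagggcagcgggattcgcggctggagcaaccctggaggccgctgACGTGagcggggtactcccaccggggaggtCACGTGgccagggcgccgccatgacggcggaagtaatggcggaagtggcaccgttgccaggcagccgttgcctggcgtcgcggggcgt
JMJD8 held 1 HIF core match, 1 CCAAT box and 3 GC boxes, and WDR90 held 3 HIF core matches, where CACGTG counts once on each strand, with 0 of either other motif. Genes whose groups overlap held HIF core matches too. RHBDL1 had 4 before 1 start and 0 before another, CCDC78 had 2, METRN had 1 and RHOT2 had 0. Of 35116 such stretches, 43.2% held a HIF core, 32% a CCAAT box and 42.6% a GC box. GC content was 73.6% for JMJD8 and 72.8% for WDR90, against a median of 58.0% over all stretches. Such matches describe the letters and do not show binding.

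Library totals ran from 15157265 to 16767383 counts. EGLN3 itself had 7298, 27674 and 27494 counts in EGLN3 replicates 1 to 3, against 10, 11 and 9 in control replicates 1 to 3 (log2 fold change 11, SE 0.72; edgeR quasi-likelihood test, adjusted p = 0.031). Markers of the line were high in all 6 libraries, with ERBB2 between 7743 and 10655 CPM of the raw totals (CPM, counts scaled to library size). Of 6 markers of blood, stromal and endothelial cells, COL1A2 was at 0 throughout and the 6 summed to between 5.47 and 5.61 CPM with EGLN3 and between 6.20 and 6.85 CPM in controls. That sum was lower with EGLN3, as JMJD8 was, and its part in the result was not tested. Most of the sum was 1 gene, COL1A1, at 56 to 74 counts with EGLN3 and 75 to 82 in controls. VIM overlapped between the groups, with its highest count, 34, in EGLN3 replicate 1. Libraries of a group differed widely along an axis that did not separate EGLN3 from control libraries. The first principal component, with 70% of the variance, put EGLN3 replicate 1 and control replicate 3 at one end and EGLN3 replicate 3 and control replicate 1 at the other. EGLN3 replicate 1 also had the fewest EGLN3 counts of its group, and EGLN3 replicate 3 has the differing label for plasmid time. Controls spread along the same axis, and a part of EGLN3 level or plasmid time in it was not tested.

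JMJD8 was lower in all 3 EGLN3 libraries than in any control. Its counts were 261, 310 and 286 in EGLN3 replicates 1 to 3, against 529, 463 and 385 in control replicates 1 to 3. In CPM after TMM scaling between libraries, the unit used from here on, these were 17.2, 18.4 and 17.9 with EGLN3 and 30.8, 29.6 and 24.2 in controls. The EGLN3 libraries lay close together, the controls were spread more widely, and the groups did not overlap. The means were 17.8 ± 0.581 CPM with EGLN3 and 28.2 ± 3.52 CPM in controls (SD, n = 3 each). The fitted log2 fold change was -0.66 (SE 0.14), or -36.7%. Of all 15726 tested genes, 3.62% were lower with EGLN3 without overlap, and 2.64% were higher without overlap. Of them, 138 genes, JMJD8 itself included, had a log2 fold change at or below that of JMJD8. In bulk RNA, fewer cells with a transcript and less of it per cell cannot be told apart.

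**Figure D2:**
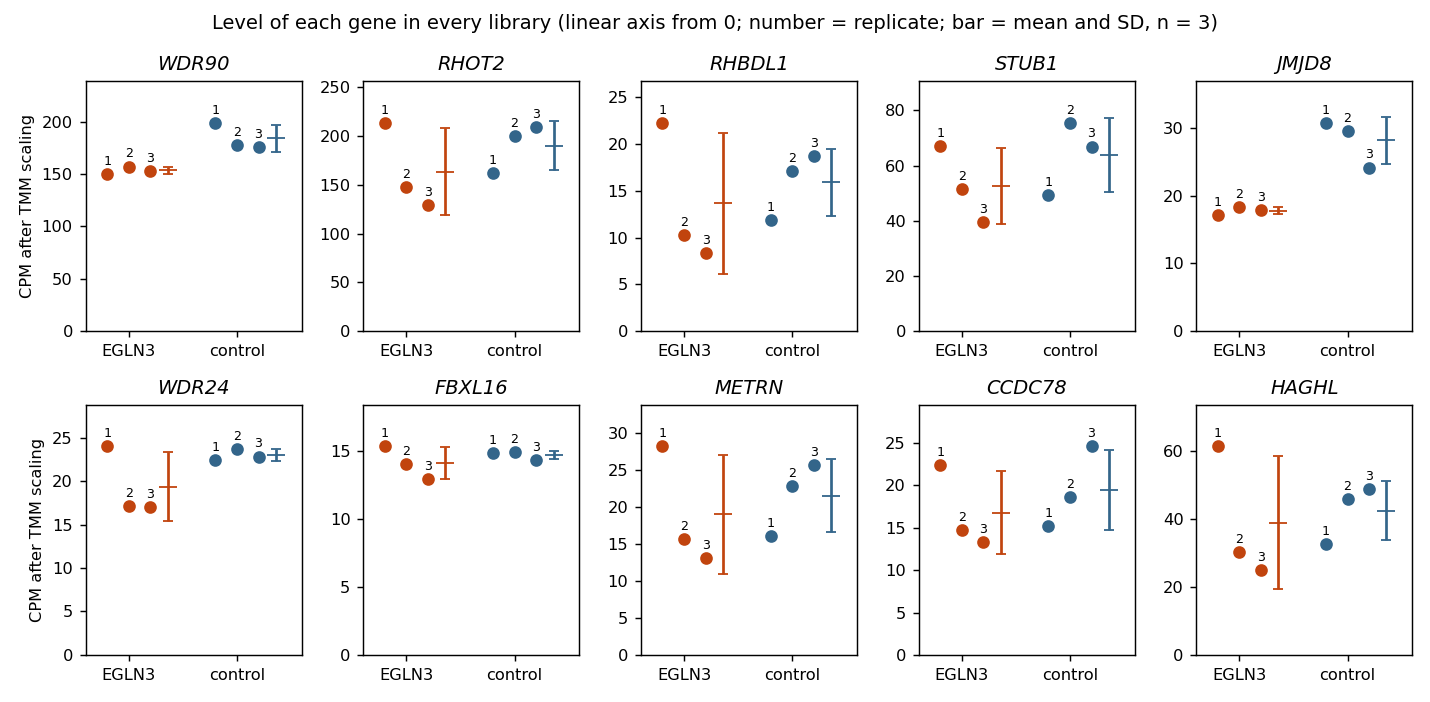
Level of each of the 10 genes in every library (y axis, CPM from 0), with EGLN3 libraries in red and controls in blue, the replicate number above each point, and the mean with SD beside them. JMJD8 and WDR90 are the genes whose EGLN3 libraries all lie below the controls.

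STUB1, a ubiquitin ligase that takes client proteins from the chaperones HSP70 and HSP90, shares the 3′ stretch with JMJD8. It had 1015, 871 and 631 counts in EGLN3 replicates 1 to 3, against 848, 1183 and 1066 in control replicates 1 to 3. Scaled, these were 66.9, 51.6 and 39.4 CPM with EGLN3 and 49.3, 75.5 and 66.9 CPM in controls. The groups overlapped: EGLN3 replicate 1 stood level with control replicate 3, and control replicate 1 below both. The log2 fold change was -0.28 (SE 0.25; edgeR, adjusted p = 1).

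WDR24, a subunit of the GATOR2 complex that passes amino acid signals to mTORC1, lies directly upstream of JMJD8 on the same strand. It measured 24.0, 17.2 and 16.98 CPM in EGLN3 replicates 1 to 3, against 22.4, 23.8 and 22.8 CPM in control replicates 1 to 3. EGLN3 replicates 2 and 3 lay below all controls and EGLN3 replicate 1 above them. The log2 fold change was -0.25 (SE 0.17; edgeR, adjusted p = 1).

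WDR90, a protein of the centriole wall, was the other member without overlap. It measured 150.2, 157 and 153 CPM in EGLN3 replicates 1 to 3, against 199, 178 and 176 CPM in control replicates 1 to 3. All EGLN3 libraries lay below all controls, with a log2 fold change of -0.26 (SE 0.12; edgeR, unadjusted p = 0.062, adjusted p = 1). It lies 13.8 kb from JMJD8, with RHOT2, RHBDL1 and STUB1 between them.

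Mitochondrial transport and membrane proteolysis are represented by RHOT2 and RHBDL1. RHOT2, or Miro2, is a GTPase of the outer mitochondrial membrane that links mitochondria to motor proteins, and it measured 213, 147 and 129 CPM in EGLN3 replicates 1 to 3, against 162, 199 and 209 CPM in control replicates 1 to 3. RHBDL1, of the rhomboid family of membrane proteases, measured 22.3, 10.3 and 8.37 CPM in EGLN3 replicates 1 to 3, against 11.9, 17.2 and 18.7 CPM in control replicates 1 to 3. In both genes EGLN3 replicate 1 was the highest of the 6 libraries and EGLN3 replicates 2 and 3 were the lowest. Both had a log2 fold change of -0.22, with SE 0.22 for RHOT2 and 0.39 for RHBDL1.

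The 4 genes on the other side of WDR24 overlapped between the groups too. FBXL16, an F-box protein, had close values throughout, at 15.4, 14.0 and 13.0 CPM in EGLN3 replicates 1 to 3, against 14.9, 14.9 and 14.4 CPM in control replicates 1 to 3. METRN, a secreted factor known for axon growth in mouse, measured 28.2, 15.7 and 13.1 CPM in EGLN3 replicates 1 to 3, against 16.1, 22.9 and 25.6 CPM in control replicates 1 to 3. CCDC78, which takes part in making centrioles in ciliated cells, measured 22.4, 14.7 and 13.4 CPM in EGLN3 replicates 1 to 3, against 15.2, 18.6 and 24.6 CPM in control replicates 1 to 3. In METRN the lowest library was EGLN3 replicate 3 and the highest EGLN3 replicate 1, and in CCDC78 the highest was control replicate 3. HAGHL, which resembles the glyoxalase II enzyme HAGH, measured 61.5, 30.2 and 25.2 CPM in EGLN3 replicates 1 to 3, against 32.6, 46.0 and 48.9 CPM in control replicates 1 to 3. Their log2 fold changes were -0.06 (SE 0.13), -0.18 (SE 0.33), -0.21 (SE 0.27) and -0.13 (SE 0.36) for FBXL16, METRN, CCDC78 and HAGHL. None of the 9 neighbours passed the test over all genes (edgeR, adjusted p = 1 for each; 0.00636% of tested genes passed, namely EGLN3, and 174 genes had an unadjusted p under 0.05, with 0 neighbours among them). DESeq2 also called 1 gene and limma-voom called 0, and neither called a neighbour.

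Taking the block as a whole, JMJD8 had the lowest log2 fold change of the 10 and all 9 neighbours had small negative ones, from -0.28 (STUB1) to -0.06 (FBXL16). Their median was -0.22, against 0.01 over all tested genes, of which 47.8% were negative. JMJD8 lay 0.44 below the neighbours' median on the log2 scale (difference -0.44). FAM173A, which lies between METRN and CCDC78 and is not among the 9, was at -0.22 (SE 0.51). The shared lean was wider than the block: 17 of 19 tested genes starting within 100 kb of JMJD8 and 38 of 42 within 500 kb were negative, with medians of -0.13 and -0.19. On chromosome 16 as a whole 57.5% of 786 tested genes were negative, with a median of -0.04. None of the 42 genes had a log2 fold change as low as that of JMJD8 in this fit. Without EGLN3 replicate 1, 7 of 45 genes within 500 kb and 4 of 20 within 100 kb were as low as JMJD8 or lower, and without each of the other libraries it was 1 to 3 genes within 500 kb. With no filter on low counts it was 10 of 68, and with 1 surrogate variable it was 1 of 42. With all 6 libraries, the gene within 100 kb nearest to JMJD8 in log2 fold change was WFIKKN1 at -0.62 (SE 0.27), a gene with only 14 to 26 counts per library.

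The neighbours' median stayed negative when any 1 library was left out, and its size changed with the library. Without EGLN3 replicate 1, control replicate 1, control replicate 2 or control replicate 3, 9 of 9 neighbours were negative, and 8 of 9 were without EGLN3 replicate 2. Without EGLN3 replicate 3, the library with the differing label, 6 of 9 neighbours and 9 of 19 genes within 100 kb were negative, and the neighbours' median was -0.07. Without EGLN3 replicate 2 it was -0.13 and without control replicate 3 it was -0.09, while without EGLN3 replicate 1 it was -0.46. JMJD8 lay between -0.76 and -0.59 over the 6 fits that left out 1 library, where the choice of a gene whose groups do not overlap fixes the direction. Its distance from the neighbours' median then ran from -0.16 without EGLN3 replicate 1, and -0.27 without control replicate 1, to -0.67 without control replicate 3. Without EGLN3 replicate 1, RHBDL1 (-0.75) was lower than JMJD8 (-0.62).

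**Figure D3:**
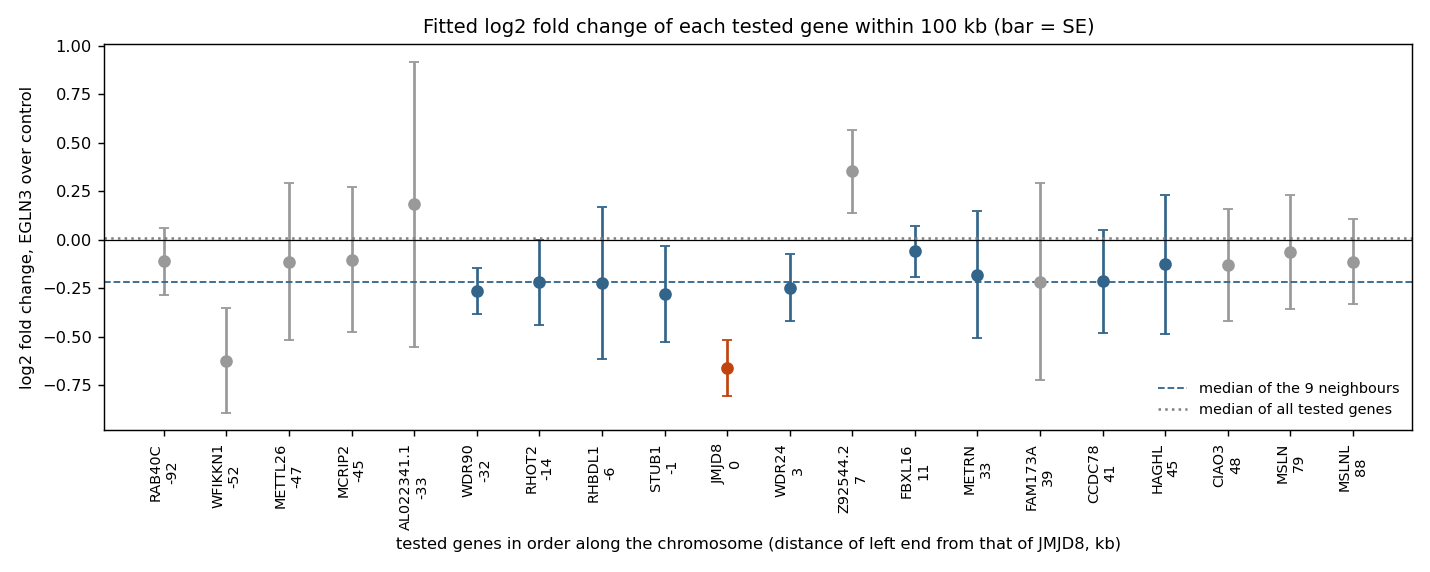
Fitted log2 fold change (EGLN3 over control, y axis, bars SE) of the 20 tested genes starting within 100 kb of JMJD8, in chromosomal order, with JMJD8 in red, its 9 neighbours in blue and other genes in grey. JMJD8 lies at -0.66, and the dashed line marks the neighbours' median of -0.22.

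Dividing JMJD8 by its neighbours inside each library removes any scaling between libraries. There were 2.85, 4.01 and 4.34 JMJD8 counts per 100 counts of the 9 neighbours in EGLN3 replicates 1 to 3, against 5.88, 4.96 and 3.98 in control replicates 1 to 3. The means were 3.73 ± 0.783 with EGLN3 and 4.94 ± 0.949 in controls (SD, n = 3 each), and the groups overlapped, since EGLN3 replicates 2 and 3 lay above control replicate 3. The log2 ratio of the means was -0.40, and -0.24 and -0.26 without EGLN3 replicate 1 and control replicate 1. Against STUB1 alone there were 25.7, 35.6 and 45.3 JMJD8 counts per 100 in EGLN3 replicates 1 to 3, against 62.4, 39.1 and 36.1 in control replicates 1 to 3. These overlapped as well. Of the 9 neighbours taken singly, WDR90 and FBXL16 gave ratios without overlap. Per 100 WDR90 counts there were 11.5, 11.7 and 11.7 JMJD8 counts in EGLN3 replicates 1 to 3, against 15.5, 16.6 and 13.7 in control replicates 1 to 3. Per 100 FBXL16 counts there were 112, 131 and 138 in EGLN3 replicates 1 to 3, against 207, 198 and 168 in control replicates 1 to 3. The mean ratio was lower with EGLN3 against each of the 9, and the groups overlapped for 7 of them. The choice of JMJD8, whose own groups do not overlap, favours lower ratios and ratios without overlap. How often other genes as denominators would give such ratios was not computed.

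**Figure D4:**
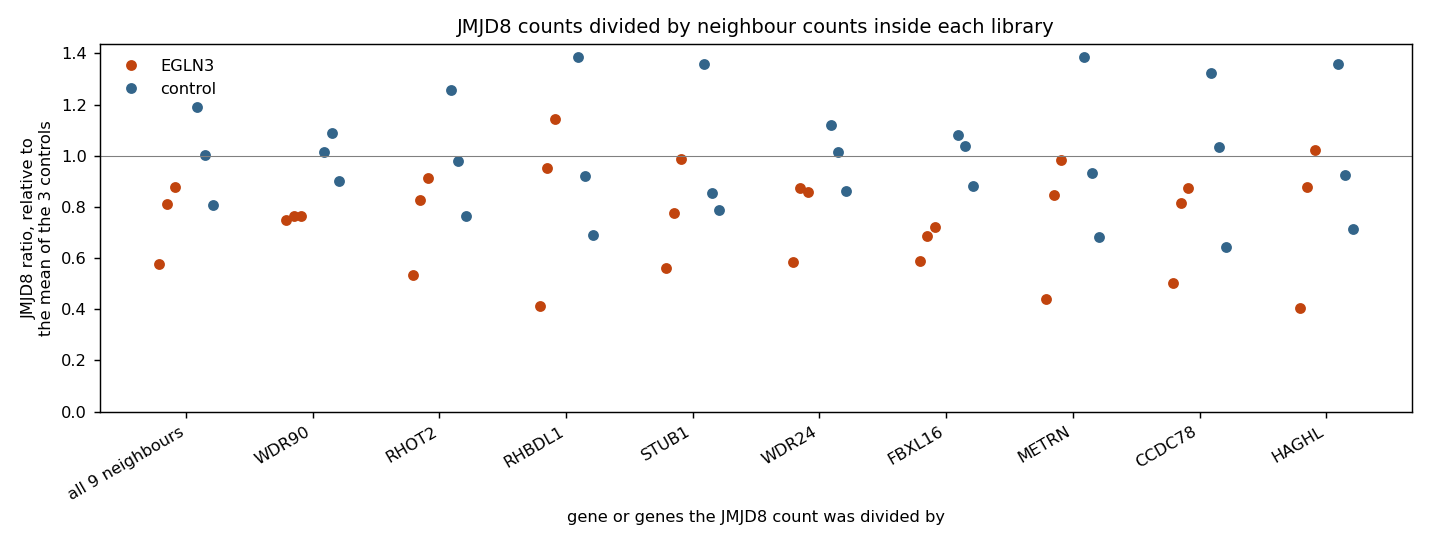
JMJD8 counts divided by the counts of all 9 neighbours or of each one, per library, relative to the mean of the 3 controls (y axis from 0), with EGLN3 libraries in red and controls in blue. The groups are apart for WDR90 and FBXL16 and overlap for the others.

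Replicates of the same group also differed from each other in the 10 genes. These differences are given as a description, since they come from the same libraries on which JMJD8 was chosen, and groups that do not overlap, as in JMJD8 and WDR90, limit how far single libraries can lie apart. The libraries compared were the ends of the first principal component in each group, a choice made after the data were seen, with 1 library at each end and so no test. From EGLN3 replicate 3 to EGLN3 replicate 1, and from control replicate 1 to control replicate 3, 7 neighbours were higher in both: WDR24, RHOT2, RHBDL1, STUB1, METRN, CCDC78 and HAGHL. For RHBDL1 the log2 ratios were 1.41 within EGLN3 libraries, the widest of the 10, and 0.66 within controls, where CCDC78 (0.70) and METRN (0.67) were wider. For STUB1 they were 0.76 within EGLN3 libraries and 0.44 within controls. For JMJD8 they were -0.05 within EGLN3 libraries and -0.35 within controls, and for WDR90 -0.03 within EGLN3 libraries and -0.18 within controls. FBXL16 was mixed, at 0.24 within EGLN3 libraries and -0.05 within controls. Among all tested genes 42.1% were higher in both and 42.5% lower in both, so either direction is common. Within 100 kb, 15 of the 19 genes other than JMJD8 were higher in both. JMJD8 and STUB1 thus had ratios of opposite sign within controls, while within EGLN3 libraries that of JMJD8 was small, at -0.05. How reads from their 983 shared exonic bp were counted is not known.

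**Figure D5:**
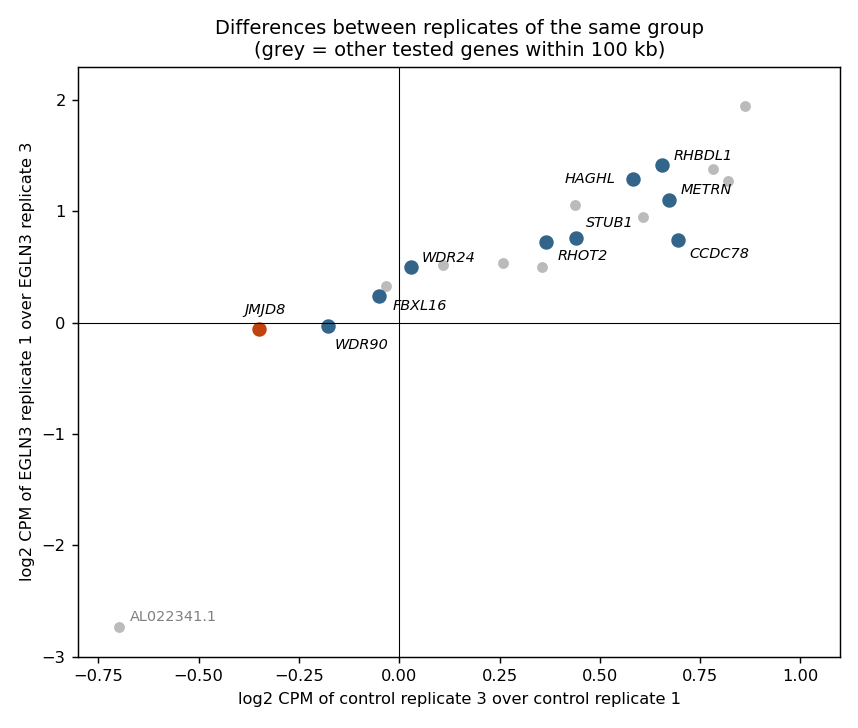
Log2 ratio of EGLN3 replicate 1 over EGLN3 replicate 3 (y axis) against that of control replicate 3 over control replicate 1 (x axis) for the 10 genes and, in grey, the other tested genes within 100 kb. JMJD8 and WDR90 lie in the lower left quadrant, and 7 neighbours lie in the upper right.

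The SD of log2 CPM (prior count 2) among EGLN3 libraries was 0.0468 for JMJD8 and 0.0330 for WDR90, against a median of 0.320 over all tested genes. Among controls it was 0.186 for JMJD8 and 0.0983 for WDR90, against a median of 0.237. The choice of genes whose groups do not overlap favours a small SD, and the medians include genes with few counts. Over the 6 libraries, Pearson's r of log2 CPM with JMJD8 was 0.96 for WDR90, 0.54 for WDR24 and between 0.08 and 0.41 for the other 7 neighbours. The points are 6 libraries that share their depth and the first axis, and the difference between groups for which JMJD8 was chosen enters each r. Of 10476 protein-coding genes outside the block with a mean of at least 5 CPM, 99.7% had a lower r than WDR90. The 5 with the highest r were SPG7 (0.99), ALS2CL (0.98), BAG6 (0.98), GPRIN1 (0.98) and PLCH2 (0.98). SPG7 also lies on chromosome 16, far from the block, with its left end at 89490719. Their log2 fold changes ran from -0.46 (PLCH2, SE 0.13) to -0.12 (SPG7, SE 0.11), each smaller in size than that of JMJD8.

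Levels between genes were compared per length, in the FPKM that the authors deposited. FPKM divide by the whole exonic length, part of which is also exonic in a gene on the other strand. That part was 37.4% for JMJD8, 42.4% for STUB1, 35.7% for WDR24 and 33.0% for HAGHL. How reads from it were counted is not known, so the place of these genes in the order is uncertain. With EGLN3 the order was RHOT2 (31.3 ± 8.69 FPKM), STUB1 (22.5 ± 6.04), WDR90 (14.4 ± 0.324), HAGHL (7.31 ± 3.73), RHBDL1 (7.20 ± 4.01), JMJD8 (6.72 ± 0.207), WDR24 (5.27 ± 1.11), METRN (5.10 ± 2.19), CCDC78 (4.02 ± 1.18) and FBXL16 (3.51 ± 0.318) (SD, n = 3). In controls JMJD8 stood higher in the order, at 10.6 ± 1.29 FPKM, after RHOT2 (36.3 ± 4.90), STUB1 (27.3 ± 5.81) and WDR90 (17.3 ± 1.12) and before RHBDL1 (8.36 ± 1.92) and HAGHL (7.95 ± 1.65). WDR24 (6.23 ± 0.209), METRN (5.76 ± 1.34), CCDC78 (4.64 ± 1.15) and FBXL16 (3.65 ± 0.0725) came last in controls, as with EGLN3. In both groups RHOT2 and STUB1 overlapped each other, and WDR90 was apart from STUB1 above it and from the next gene below. From JMJD8 down in controls, and from HAGHL down with EGLN3, each gene overlapped the next in the order. Per library JMJD8 had 6.53, 6.94 and 6.69 FPKM in EGLN3 replicates 1 to 3, against 11.5, 11.2 and 9.12 FPKM in control replicates 1 to 3.

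Relatives and partners of the members showed no called change, in lists chosen with earlier results known. Among all tested genes 0.00636% passed, namely EGLN3, so 0 passing does not set a list apart from other genes. The median log2 fold change over all tested genes was 0.01. Of 9 proteins with a Jumonji C domain and no other, JMJD8 left out, 0 passed the test, 3 had a negative log2 fold change and the median was 0.05. TYW5 (0.14, SE 0.17) and RIOX1 (0.10, SE 0.14), both hydroxylases of the translation machinery, had the smallest unadjusted p among them. Of a list of 12 genes, made of the path from tumour necrosis factor to NF-kB and the pyruvate kinase PKM, 0 passed and the median was -0.04. IKBKG, the regulatory subunit of the IkB kinase, was at -0.38 (SE 0.28), the adaptor TAB2 at 0.19 (SE 0.19) and PKM at -0.16 (SE 0.16).

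Of 15 chaperones and ubiquitin-conjugating enzymes that work with STUB1, 0 passed and the median was -0.01, with UBE2D1 at 0.16 (SE 0.13), BAG2, an inhibitor of STUB1, at 0.14 (SE 0.13), and the HSP70 gene HSPA1B at -0.15 (SE 0.15). HSPA1B has a near-identical copy, so the division of its reads is uncertain. Of 8 GATOR genes 0 passed, with a median of -0.03. DEPDC5 of GATOR1 was at -0.14 (SE 0.15) and MIOS of GATOR2 at 0.15 (SE 0.16). Of 8 tested genes of mitochondrial transport and fusion 0 passed, with a median of 0.03; MFN2, a mitofusin, was at -0.13 (SE 0.16) and the kinase PINK1 at -0.18 (SE 0.25).

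Of 8 tested rhomboid genes 0 passed, with a median of -0.13. RHBDF2 was at -0.17 (SE 0.11), RHBDL2 at -0.18 (SE 0.16) and RHBDF1 at -0.12 (SE 0.15). Of 8 tested genes of centriole duplication 0 passed, with a median of 0.10, CENPJ at 0.25 (SE 0.22) and CEP63 at 0.13 (SE 0.14). Of 5 meteorin and glyoxalase relatives 0 passed, with a median of -0.13, HAGH at -0.36 (SE 0.29) and GLO1 at 0.15 (SE 0.17). Of 9 genes of the F-box ligase core and its FBXL family 0 passed, with a median of 0.03, FBXL20 at 0.12 (SE 0.12) and SKP1 at 0.23 (SE 0.29). Every adjusted p in these lists was 1 (edgeR; JMJD8 left out).

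A model that also carried 1 surrogate variable, estimated from the counts, called 2 of the neighbours, with JMJD8 again the lowest of the 10. Whether that variable follows the first axis was not tested. In this model 3.66% of tested genes were called lower and 1.1% higher. WDR90 (-0.27, SE 0.05; edgeR, adjusted p = 0.004) and RHOT2 (-0.21, SE 0.05; edgeR, adjusted p = 0.017) fell in that model, and the other 7 neighbours did not pass. JMJD8 was at -0.67 (SE 0.09). When GC and length trends of each library were removed too, 0.649% of tested genes were called lower and 0.331% higher, and 0 neighbours passed. WDR90 was then at -0.11 (SE 0.05; edgeR, adjusted p = 0.31) and RHOT2 at -0.07 (SE 0.05; edgeR, adjusted p = 0.57). The neighbours' median was -0.07, that of the 42 genes within 500 kb was -0.04, and FBXL16 turned to 0.11 (SE 0.10). JMJD8 was at -0.50 (SE 0.08), still 0.43 below the neighbours' median (difference -0.43). The surrogate variable and the trends were estimated from the same 6 libraries, so these SEs and p-values may be too small.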

How the data were processed

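Per the labels, total RNA of NCI-N87 cells was sequenced in 3 EGLN3 and 3 control libraries. The deposited counts are whole numbers per gene, unscaled. HISAT2 2.0.5, featureCounts 1.5.0-p3, DESeq2 1.20.0 and hg38 are named in the submitters' processing notes. Neither the annotation nor strand use is given in the sources used here. The FPKM that the authors deposited equal counts over gene length times 1 factor per library. Of 58735 genes, 58724 had the same span and strand in GENCODE release 29.

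Counts were filtered with filterByExpr (15726 genes), scaled by TMM and tested with edgeR 4.0.16 (quasi-likelihood, robust, R 4.3.3), adjusted by Benjamini and Hochberg, with calls under 0.05. SE is the log2 fold change over the square root of F. Alternatives used DESeq2 1.42.0, limma 3.58.1, sva 3.50.0, other scalings and filters, log2(FPKM + 1) and log2(FPKM + 0.1), the replicate number as a block, and each library left out. Scripts were tested on simulated data. Totals of 15157265 to 16767383 counts put JMJD8 at 261 to 529 counts. Library pairs differed beyond sampling noise (chi-square per degree of freedom 8.98 to 118), so none was merged with another; whether they come from separate cultures was not tested. Named genes were the members, EGLN3, markers, the 5 genes most like JMJD8 and up to 3 per list. WFIKKN1, FAM173A, Z92544.2, AL022341.1 and AL022341.2 were added after their values were seen. Members, lists and the surrogate variable models were chosen with earlier results of these data known.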

Additional observations from a re-analysis of the deposited data

How the results depend on the processing

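JMJD8 stayed negative in all 18 alternatives, between -0.76 and -0.50 on the log2 scale, with the value nearest 0 (-0.50) in the model with 1 surrogate variable and GC and length trends. The neighbours' median also stayed negative in all 18, from -0.46 to -0.07. So did the log2 ratio of JMJD8 to its neighbours in its 9 alternatives, from -0.54 to -0.24. JMJD8 was chosen for its lower counts in these libraries, so its sign and that of the ratio were largely fixed in advance. Single neighbours changed sign in 5 cases: FBXL16 at 0.11 with the surrogate variable and trends, HAGHL at 0.02 without EGLN3 replicate 2 and at 0.11 without EGLN3 replicate 3, and RHBDL1 at 0.032 and METRN at 0.027 without EGLN3 replicate 3. Without EGLN3 replicate 1 these 3 were at their lowest, HAGHL at -0.60, RHBDL1 at -0.75 and METRN at -0.56. The trends changed the value of FBXL16 by construction, and for the others the cause was not tested. Over all genes the number called was 1 with DESeq2, other scalings, no filter, the stricter filter and log2(FPKM + 0.1). It was 0 with limma-voom and with log2(FPKM + 1) with or without a minimum, 749 with 1 surrogate variable, 154 with GC and length trends added, and 0 to 1 without single libraries. With the replicate block it was 0, JMJD8 was at -0.65 and the neighbours' median at -0.25. Replicate numbers did not pair the libraries: deviations of same-numbered libraries correlated at -0.79, -0.18 and -0.67, and 0 of 6 libraries correlated best with their own number. Counts of 3 libraries a group and unknown use of strand limit STUB1, JMJD8, HAGHL and WDR24 most.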

Other observations

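Antisense transcripts beside the block had few counts. Z92544.2, which crosses the start of WDR24 and the end of FBXL16 on the other strand, had the highest log2 fold change among genes within 100 kb, at 0.35 (SE 0.21; edgeR, unadjusted p = 0.14, adjusted p = 1). It measured 5.01, 3.68 and 3.996 CPM in EGLN3 replicates 1 to 3, against 3.08, 3.83 and 3.01 CPM in control replicates 1 to 3, so the groups overlapped. WDR24, which shares 1303 exonic bp with it, was at -0.25. AL022341.1, antisense and next to WDR90, measured 0.132, 0.711 and 0.874 CPM in EGLN3 replicates 1 to 3, against 0.815, 0.192 and 0.502 CPM in control replicates 1 to 3. It was chosen after its values were seen, as the tested gene within 100 kb that was lowest in EGLN3 replicate 1 relative to EGLN3 replicate 3.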
